A study of Mus musculus with 7 samples.

Results

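The keratin-associated protein genes (Krtap) were described across 7 arrays of lesional mouse skin, 4 from OX40L knockout (ox40l-/-) and 3 from OX40L wild type (ox40l+/+) animals. Members were all rows of the deposited value table whose platform gene symbol begins with Krtap, which gave 54 genes of the 23185 genes with 1 symbol, each with 1 probe set. All animals were male, labelled C57BL/6 and 9 weeks old, and all had been injected with bleomycin for 3 weeks to induce skin fibrosis, so that the wild type controls carry the treatment too and no untreated skin was compared. OX40L is the costimulatory ligand encoded by Tnfsf4. The labels name neither the deleted part of that gene nor a cell type in which it is deleted, and nothing in them ties a sample to an animal of its own. The p-values therefore rest on the spread over these 7 samples, some of which may be technical.

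Keratin-associated proteins are small proteins that fill the space between the keratin filaments of the hair shaft and link them through disulfide bonds. They are made late in the differentiation of the shaft, by cortex and cuticle cells that arise from the matrix of a growing (anagen) hair follicle, and a resting follicle makes little of them. By composition they fall into high-sulfur and ultra-high-sulfur proteins, both rich in cysteine, and high-glycine-tyrosine proteins. Their genes are short, mostly without introns, and stand in clusters of near copies.

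Values are log2 expression values after robust multi-array averaging (RMA), and differences are knockout minus wild type on that scale. The arrays were not equally alike. Across probe sets, the highest correlation with any other array was 0.914 for wild type replicate 1 and 0.908 for wild type replicate 3, and from 0.960 to 0.969 for the other 5 arrays. Values were most spread on wild type replicate 1 (SD 1.72) and least on wild type replicate 3 (SD 1.22), with SDs of 1.38 to 1.48 elsewhere. Actb, a cytoskeletal actin gene often used as a loading control, was at 6.61, 6.12, 5.71 and 7.01 on the knockout arrays and at 9.97, 6.90 and 3.03 on the wild type arrays. It was highest on wild type replicate 1, as were most Krtap genes, and what part array or RNA quality has in their values was not tested. Tnfsf4 was at 3.35, 2.82, 2.81 and 2.81 on knockout replicates 1 to 4 and at 2.53, 2.60 and 3.65 on wild type replicates 1 to 3, near or below the array medians of 3.45 to 3.74, and the place of its probes relative to the deletion was not known here, so it checks nothing about the labels. Krtdap, a marker of differentiated keratinocytes, was between 11.6 and 11.9 on the knockout arrays and between 11.2 and 11.5 on the wild type arrays, so the epidermis of the labelled tissue was seen on every array.

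The promoters of 6 members are shown because these genes carry the pattern described below: the gene of each class with the widest range over the 7 arrays (Krtap4-7, Krtap3-3 and Krtap8-1), the gene that stood out most on wild type replicate 1 (Krtap15), the gene with the largest difference between genotypes (Krtap22-2), and, for contrast, the ultra-high-sulfur gene with the narrowest range (Krtap9-5). Each is the 150 bases before the annotated start, 5′ to 3′ on the strand of the gene, from RefSeq on build GRCm38.p6. Capitals mark matches to 3 motifs on either strand: TATAAA for the TATA box, CTTTGAA or CTTTGAT for LEF/TCF factors, and TTTATNAA, TTTATNAG, TTTATNGA, TTTATNGG, TTAATNAA, TTAATNAG, TTAATNGA or TTAATNGG for HOXC13, a homeodomain factor of the hair shaft. Krtap4-7 lies at chr11:99644090-99644239, minus strand, Krtap3-3 at chr11:99550864-99551013, minus strand, Krtap8-1 at chr16:89487953-89488102, minus strand, Krtap15 at chr16:88828859-88829008, plus strand, Krtap22-2 at chr16:89010760-89010909, minus strand and Krtap9-5 at chr11:99948274-99948423, plus strand.
Krtap4-7: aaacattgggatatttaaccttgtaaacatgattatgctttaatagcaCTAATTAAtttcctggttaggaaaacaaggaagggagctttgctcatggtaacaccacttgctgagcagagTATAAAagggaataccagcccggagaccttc
Krtap3-3: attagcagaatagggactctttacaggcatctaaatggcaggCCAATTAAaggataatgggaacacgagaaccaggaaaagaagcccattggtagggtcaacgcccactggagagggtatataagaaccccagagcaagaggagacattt
Krtap8-1: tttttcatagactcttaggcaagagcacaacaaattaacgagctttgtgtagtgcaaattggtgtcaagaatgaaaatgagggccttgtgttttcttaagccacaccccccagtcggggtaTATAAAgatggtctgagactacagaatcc
Krtap15: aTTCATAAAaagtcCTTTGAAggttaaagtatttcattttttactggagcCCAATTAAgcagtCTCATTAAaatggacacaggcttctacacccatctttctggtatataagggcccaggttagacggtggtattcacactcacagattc
Krtap22-2: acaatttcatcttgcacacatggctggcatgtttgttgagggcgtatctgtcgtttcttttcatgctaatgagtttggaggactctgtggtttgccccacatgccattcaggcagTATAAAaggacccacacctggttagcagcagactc
Krtap9-5: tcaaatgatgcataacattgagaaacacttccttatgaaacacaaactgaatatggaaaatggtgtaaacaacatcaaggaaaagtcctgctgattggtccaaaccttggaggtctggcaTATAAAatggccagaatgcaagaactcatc

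A TATAAA match stood between 35 and 29 bases before the start in Krtap4-7, Krtap8-1, Krtap22-2 and Krtap9-5, and Krtap4-7, Krtap3-3 and Krtap15 held HOXC13 matches. Over the whole promoter entry, 250 bases before to 50 after the start, 40 of the 49 Krtap genes with an entry held TATAAA on either strand, 81.6%, against 14.2% of 27025 promoters of all genes. On the strand of the gene and starting 40 to 15 bases before the start, it was found in 61.2% of Krtap promoters and in 2.33% of all promoters. LEF/TCF matches were in 24.5% of Krtap promoters and in 8.77% of all, and HOXC13 matches in 51.0% and 19.4%. Matches of HOXC13 and the TATA box can share bases, and counting only HOXC13 matches that share none with TATAAA gave 46.9% of Krtap promoters and 16.4% of all. Near copies within a family share sequence, so these promoters are not independent of each other.

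Every Krtap gene had a lower mean in knockout than in wild type skin, but 1 wild type array set most of that difference and no member passed the test. The mean was lower in knockout in 54 of 54 members, where 48.3% of all 23185 genes were, and the median difference was -1.19 over the family and 0.01 over all genes. Differences ran from -3.24 for Krtap22-2 to -0.002 for Krtap5-5. In limma's moderated test with Benjamini-Hochberg adjustment over all genes, 0 of 54 members were lower in knockout and 0 were higher at an adjusted p under 0.05, where 0.00431% of all genes passed, which is 1 gene, higher in knockout. A fit with array weights, which called 17.4% of all genes, called 5 members, 3 lower and 2 higher in knockout. At an unadjusted p under 0.05 there were 2 members, Krtap22-2 and Krtap4-16, both lower in knockout, or 3.7% of the family, against 0.854% of all genes lower in knockout at that threshold. The knockout arrays were all below the wild type arrays in 2 members, Krtap4-16 and Krtap21-1, against 0.815% of all genes, and all above them in 0 members, against 1.1% of all genes. Without wild type replicate 1 the median difference was -0.24, 47 of the 54 members had a lower mean in knockout where 53.7% of all genes did, and 1 member had an unadjusted p under 0.05, Krtap21-1, where 2.0% of all genes were lower and 1.18% higher in knockout at that threshold. Krtap4-16 and Krtap21-1 still did not overlap between genotypes, as did 4.54% of all genes in that direction, and 0 members passed at an adjusted p under 0.05.

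The 54 genes were highest on wild type replicate 1 in 45 cases and on wild type replicate 3 in the other 9, and a knockout array was highest in 0. Over all genes those shares were 25.3% for wild type replicate 1, 30.1% for wild type replicate 3 and 37.5% for the knockout arrays together. Wild type replicate 1 lay at least 1 log2 unit above every other array in 37 members, 68.5% of the family, against 5.63% of all genes, and at least 2 units above in 30 members, against 0.841% of all genes. The gap was at least 3 units in 23 members, against 0.272% of all genes. Of the 100 genes that stood out most in this way, 26 were Krtap genes, which is 48.1% of the family. Genes of other kinds were among them too: the ribosomal protein gene Rps9 ranked 20 (gap 3.78) and the histone gene H2bc7 ranked 23 (gap 3.68). Scaling all arrays to the same SD left 45 members highest on wild type replicate 1 and 36 of them by at least 1 unit, where 7304 of all 23185 genes were highest there and 728 of them, 3.14% of all genes, by at least 1 unit. Of the 54 members, 51 were above the array median on wild type replicate 1, and 38 and 35 on wild type replicates 2 and 3. On knockout replicates 1 to 4 the counts were 31, 31, 37 and 21. Many values on the other arrays were thus low, a limit on reading fold gaps over them and flat genes. In whole skin, fewer shaft-forming cells and less RNA in each of them cannot be told apart.

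**Figure D1:**
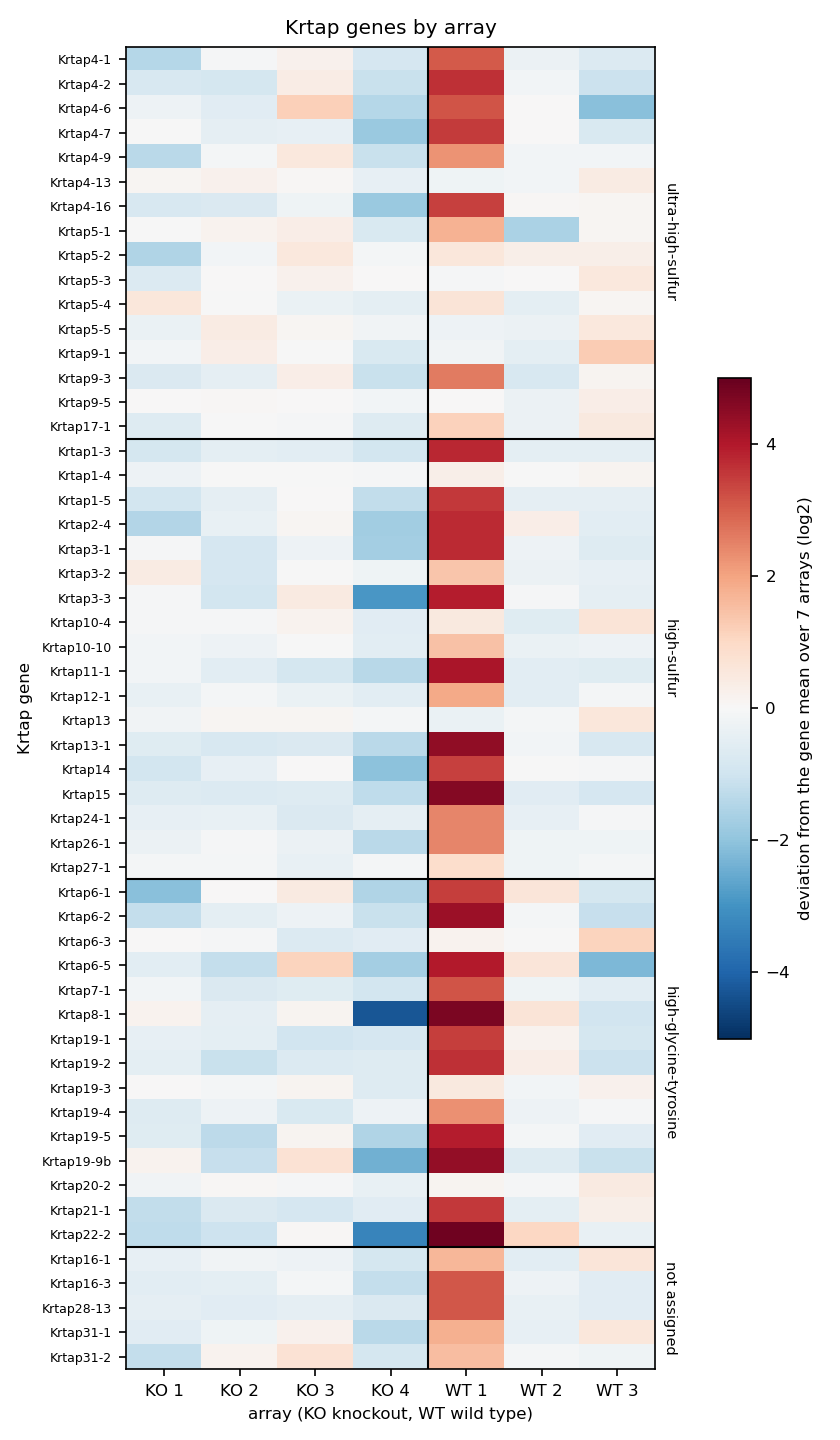
Deviation of each Krtap gene (rows, grouped by protein class) from its own mean over the 7 arrays, on the log2 scale, with knockout (KO) arrays in the left columns and wild type (WT) arrays in the right ones. Red is above and blue below the gene's mean, and the column of WT 1 is red for most genes while KO 4 is the bluest of the others.

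In every class the mean deviation was highest on wild type replicate 1 and lowest on knockout replicate 4, while the order of the arrays between them differed. The mean over all 54 genes of the deviation from each gene's own mean was -0.49, -0.36, -0.06 and -1.05 on knockout replicates 1 to 4, and 2.39, -0.18 and -0.24 on wild type replicates 1 to 3. Wild type replicate 1 stood alone, and wild type replicates 2 and 3 lay within the range of the knockout arrays. Wild type replicates 1 and 2 carry the same number in the codes of their sample descriptions, whose meaning is not stated, and differed in the family mean by more than any 2 knockout arrays did. Knockout replicates 1 and 2 also share a code number, and were at -0.49 and -0.36. Across genotypes, wild type replicate 3 and knockout replicate 3 share a code number, and were at -0.24 and -0.06.

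**Figure D2:**
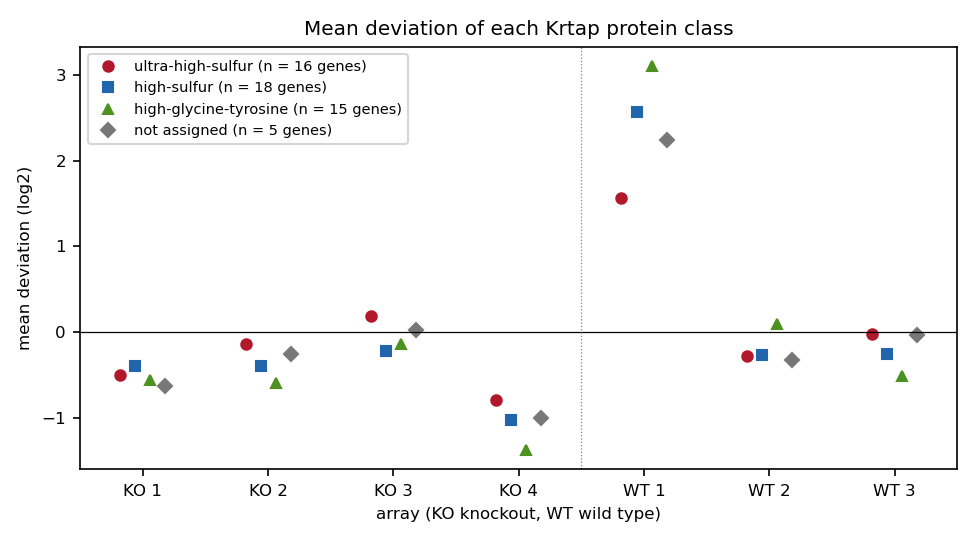
Mean deviation (log2) of the genes of each protein class on each array, with knockout (KO) arrays left of wild type (WT) arrays and 1 point per class. All classes are highest on WT 1, between 1.56 and 3.10, and lowest on KO 4, between -1.38 and -0.80.

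The high-glycine-tyrosine genes, families 6, 7, 8, 19, 20, 21 and 22, had the widest separation of wild type replicate 1. Their 15 members had a median difference of -1.59 (-0.33 without wild type replicate 1), and that array was at least 1 unit above all others in 12 of them. Krtap22-2 was at 4.74, 4.97, 6.07 and 2.72 on the knockout arrays and at 10.88, 7.06 and 5.65 on the wild type arrays. Its highest knockout value lay above its lowest wild type value, so the groups overlapped. The difference was -3.24 (SE 1.29), with a 95% interval from -6.25 to -0.22 and an adjusted p of 0.9995 in limma. Krtap22-2 had the most negative difference of all 23185 genes, but it failed the adjustment over all genes, and without wild type replicate 1 the difference was -1.73 (SE 0.93).

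Krtap8-1, which in human hair is a protein of the cortex, was at 6.75, 6.14, 6.72 and 2.30 on the knockout arrays, against 11.29, 7.24 and 5.63 on the wild type arrays. Wild type replicate 1 was 16.5-fold above the next array and knockout replicate 4 was far below all others. The difference of -2.57 had a 95% confidence interval of -6.26 to 1.11 (limma adjusted p = 0.9995), and it was -0.96 without wild type replicate 1.

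Krtap21-1 was at 3.16, 3.66, 3.53 and 3.82 in knockout and at 7.93, 3.90 and 4.69 in wild type. All knockout arrays lay below all wild type arrays, also with wild type replicate 1 left out, where the nearest values were 3.82 in knockout and 3.90 in wild type. The difference was -1.96 (SE 0.87, limma adjusted p = 0.9995), and -0.75 (SE 0.28, limma adjusted p = 0.905) without that array.

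Within the Krtap6 family, 3 of 4 genes followed the pattern. Krtap6-2 was at 3.76, 4.46, 4.69 and 3.84 in knockout and at 9.24, 4.85 and 3.82 in wild type, so that wild type replicate 1 was 21.1-fold above the next array. Krtap6-3 did not follow: it was at 5.20, 5.13, 4.48 and 4.60 in knockout and at 5.36, 5.14 and 6.27 in wild type, highest on wild type replicate 3, with a difference of -0.74 (SE 0.32, limma adjusted p = 0.9995). Krtap6-5 had a difference of -1.35 that became 0.25 without wild type replicate 1, and Krtap6-1 a difference of -1.85.

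The Krtap19 family had 6 members, and wild type replicate 1 was highest in all of them. Krtap19-5 was at 3.75, 3.05, 4.48 and 2.86 in knockout and at 8.30, 4.26 and 3.80 in wild type. Krtap19-9b was at 4.57, 3.25, 5.11 and 2.01 in knockout and at 8.77, 3.73 and 3.30 in wild type, and its difference of -1.53 became 0.22 without wild type replicate 1. Krtap19-4 differed by -1.15 (SE 0.59), and Krtap19-3, the flattest of the 6, by -0.33 (SE 0.25), neither past the threshold (limma adjusted p = 0.9995 for each). Krtap20-2 was also flat, with all 7 arrays between 2.81 and 3.63, each below the median of its array. Krtap7-1 was at 3.33 to 4.12 in knockout and at 7.41, 4.05 and 3.74 in wild type.

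Among the high-sulfur genes, families 1, 2, 3, 10 to 15, 24, 26 and 27, the median difference was -1.35 over 18 members (-0.21 without wild type replicate 1). Krtap15 was at 4.60, 4.55, 4.60 and 3.95 in knockout and at 9.82, 4.67 and 4.39 in wild type. Wild type replicate 1 was 35.5-fold above the next array, the largest such gap of any Krtap gene, and the other 6 arrays spanned only 0.73. The difference of -1.87 (95% confidence interval -4.78 to 1.03) became -0.11 (SE 0.23) without that array.

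Krtap13-1 was at 3.65, 3.47, 3.54 and 2.91 in knockout and at 8.71, 4.12 and 3.48 in wild type, a 24.1-fold gap between wild type replicate 1 and the next array. Its namesake Krtap13 was flat, at 1.88, 2.16, 2.17 and 1.95 in knockout and at 1.72, 1.95 and 2.63 in wild type, and had its lowest value on wild type replicate 1. The values of Krtap13 all lay below the array medians of 3.45 to 3.74, where a probe set may hold little signal. Krtap14 was at 4.32, 4.81, 5.24 and 3.17 in knockout and at 8.65, 5.18 and 5.18 in wild type, a difference of -1.95 (SE 0.92, limma adjusted p = 0.9995), or -0.80 without wild type replicate 1.

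Families 1 to 3 encode proteins of the hair cortex in human and sheep hair. Krtap3-3 was at 5.92, 5.07, 6.40 and 3.05 in knockout and at 9.89, 5.92 and 5.53 in wild type. Krtap2-4 was at 3.77, 4.86, 5.34 and 3.50 in knockout and at 8.97, 5.55 and 4.71 in wild type, a difference of -2.04 (SE 1.01, limma adjusted p = 0.9995), or -0.77 without wild type replicate 1. Krtap1-3 was at 2.01 to 2.46 on the 4 knockout arrays and at 6.72, 2.46 and 2.46 in wild type. On wild type replicate 1 these genes lay 3.41 to 4.26 above the next array, whereas Krtap1-4 spanned only 0.57 over all 7 arrays. Krtap3-3 and Krtap2-4 were also above the array median on most other arrays.

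Krtap11-1 was at 3.58, 3.20, 2.85 and 2.35 in knockout and at 7.80, 3.20 and 3.13 in wild type. Krtap24-1 was at 3.53 to 3.87 in knockout and at 6.69, 3.84 and 4.17 in wild type, a difference of -1.14 (SE 0.64, limma adjusted p = 0.9995). The 2 Krtap10 genes and Krtap12-1, relatives of genes of the human hair cuticle, had smaller differences of -0.76 to -0.31, and wild type replicate 1 was at least 1 unit above the other arrays in Krtap12-1 and Krtap10-10.

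The ultra-high-sulfur genes, families 4, 5, 9 and 17, were divided. Their median difference over 16 members was -0.65 (-0.15 without wild type replicate 1), and wild type replicate 1 was at least 1 unit above all others in 8. Krtap4-16 was at 4.45, 4.55, 5.07 and 3.40 in knockout and at 8.70, 5.34 and 5.38 in wild type. All knockout arrays lay below all wild type arrays. The difference was -2.10 (SE 0.85) with a 95% interval from -4.10 to -0.10 (limma adjusted p = 0.9995), and -0.99 (SE 0.44) without wild type replicate 1.

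Krtap4-7 was at 3.57, 3.13, 3.18 and 1.75 in knockout and at 7.08, 3.61 and 2.85 in wild type. Krtap4-2 was at 3.14 to 4.63 in knockout and at 7.91, 4.15 and 3.19 in wild type, and its difference of -1.43 became -0.02 without wild type replicate 1. Krtap4-6 was at 5.56, 5.24, 7.03 and 4.41 in knockout and at 8.96, 5.84 and 3.73 in wild type, and its difference of -0.62 became 0.78 without that array. Krtap4-9 differed by -1.18 (SE 0.71) and by -0.39 without it. The exception in the family was Krtap4-13, which was at 6.87, 7.0, 6.82 and 6.36 in knockout and at 6.57, 6.65 and 7.17 in wild type, a difference of -0.03 (SE 0.22, limma adjusted p = 0.9995).

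The 5 Krtap5 genes had a median difference of -0.15, and wild type replicate 1 was at least 1 unit above the other arrays in 1 of them, Krtap5-1. Krtap5-1 was at 4.64, 4.86, 5.02 and 3.89 in knockout and at 6.40, 3.10 and 4.76 in wild type. Krtap5-5 was at 3.74, 4.47, 4.16 and 3.90 in knockout and at 3.81, 3.79 and 4.60 in wild type. The Krtap9 family was mixed: Krtap9-3 was at 2.56 to 3.99 in knockout and at 6.26, 2.85 and 3.80 in wild type, whereas Krtap9-5 spanned 0.63 and Krtap9-1 was highest on wild type replicate 3, at 7.73. Krtap17-1, a cuticle gene in human hair, was at 4.57, 5.17, 5.16 and 4.55 in knockout and at 6.37, 4.90 and 5.70 in wild type, a difference of -0.79 (SE 0.36, limma adjusted p = 0.9995).

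The 5 genes whose class was not assigned had differences from -1.35 to -0.71. Krtap16-3 was at 2.54, 2.60, 3.00 and 1.88 in knockout and at 6.20, 2.84 and 2.53 in wild type, and Krtap28-13 at 2.22 to 2.47 in knockout and at 6.04, 2.55 and 2.36 in wild type. Krtap16-1, Krtap31-1 and Krtap31-2 differed by -1.01 (SE 0.48), -1.13 (SE 0.55) and -0.71 (SE 0.60), with limma adjusted p = 0.9995 for each. Without wild type replicate 1 the 5 differences lay between -0.57 and -0.07.

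**Figure D3:**
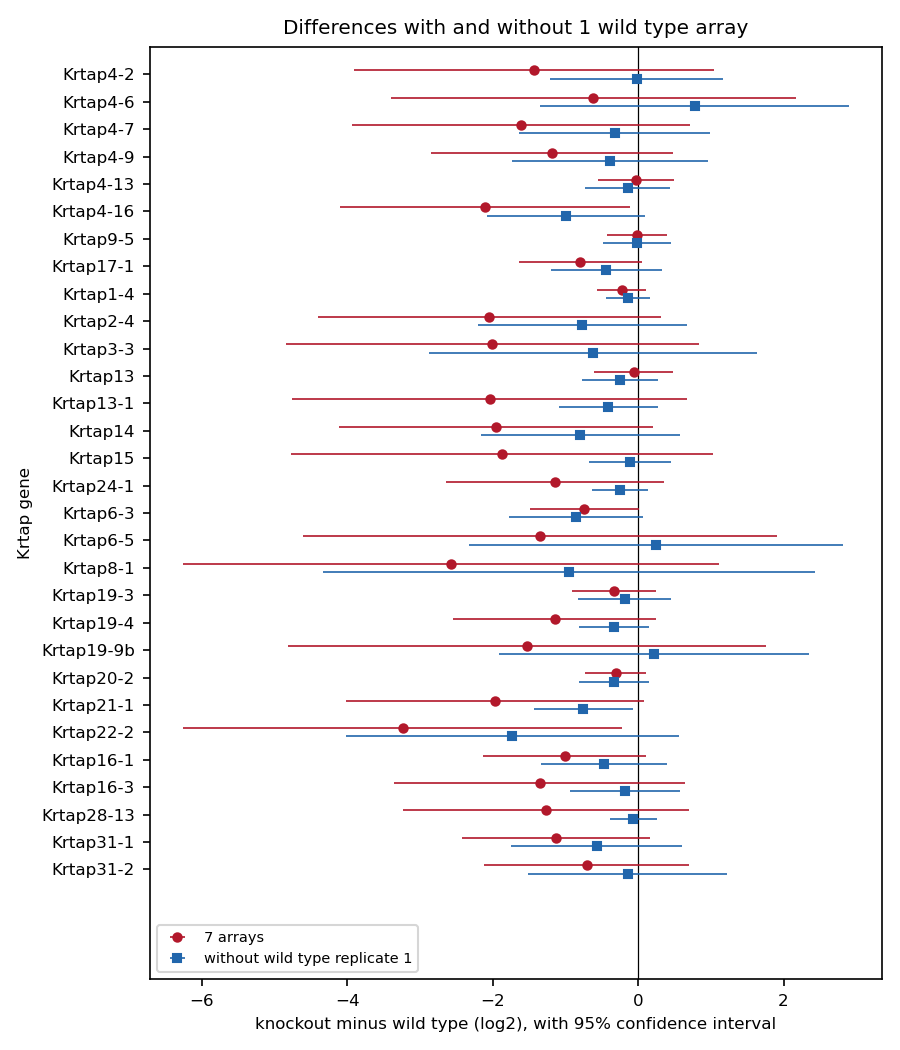
Difference between genotypes (knockout minus wild type, log2) with its 95% confidence interval for 30 named Krtap genes, from all 7 arrays (red circles) and without wild type replicate 1 (blue squares). The circles lie between -3.24 and -0.02 and most squares lie nearer to 0, with Krtap4-6, Krtap6-5 and Krtap19-9b on its other side.

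Members without a gap of 1 unit on wild type replicate 1 were found on chromosomes 7, 10, 11 and 16, and not all of them were flat: their range over the 7 arrays ran from 0.57 for Krtap1-4 to 2.74 for Krtap31-2. On chromosome 16, 19 of 24 Krtap genes had wild type replicate 1 at least 1 unit above the other arrays, on chromosome 11 14 of 21, on chromosome 10 2 of 3 and on chromosome 7, which holds the Krtap5 genes, 1 of 5. Krtap28-13, the 1 member on chromosome 1, had it too. Of the 17 members without that gap, 9 had their highest value on wild type replicate 3, whose values were the least spread. In the promoters, TATAAA was in 27 of 33 promoters of members with the gap and in 13 of 16 of the rest, HOXC13 matches in 17 and 8 of them, and LEF/TCF matches in 9 and 3 of them, or 27.3% and 18.8%. Probes of near-identical copies can hybridise to each other's transcripts, so a value belongs to its probe set, and values of close relatives are not independent.

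A lower level on knockout replicate 4 was the other shared feature. That array was the lowest of the 7 in 31 of the 54 genes, 57.4%, against 10.0% of all genes. It was below the mean of the other 3 knockout arrays in Krtap8-1 (difference -4.24), Krtap3-3 (-2.74) and Krtap22-2 (-2.54). Other members did not share this: knockout replicate 4 was lowest in 0 of 4 Krtap6 genes and 1 of 5 Krtap5 genes. Krtap21-1 had its highest knockout value there. When wild type replicate 1 and knockout replicate 4 were both left out, which was added after these values were seen, the median difference was -0.03 and 33 of 54 members had a lower mean in knockout, where 52.1% of all genes did.

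Most genes of the shaft, sheath, matrix, pigment and proliferation lists were highest on wild type replicate 1, where 25.3% of all genes were. That held for 14 of 15 hair shaft keratins, 12 of 13 sheath and companion layer genes and 11 of 15 shaft envelope genes. It also held for 14 of 23 regulators, 8 of 10 pigment genes and 13 of 13 proliferation genes. It was not particular to these lists: 6 of 10 bulge, 6 of 11 interfollicular and 5 of 9 fibroblast genes were highest there too. The counts were lower for sebaceous genes (2 of 10), dermal papilla genes (1 of 13) and muscle genes (0 of 12). In the counts that follow, a lower gene is one with a lower mean in knockout skin. Hair shaft keratins, the filament proteins that keratin-associated proteins surround, had a lower mean in knockout in 15 of 15 measured members of 16 listed, with a median of -0.67 (-0.07 without wild type replicate 1). At an unadjusted p under 0.05, 2 of them were lower and 0 higher, against 0.854% and 1.03% of all genes. Those were Krt33b, at 4.21, 4.02, 4.21 and 3.92 in knockout and at 4.66, 4.62 and 4.21 in wild type, and Krt32, at 4.19 to 4.44 in knockout and at 5.43, 4.53 and 4.68 in wild type. Krt33a, chosen after its values were seen, was at 2.35 to 3.43 in knockout and at 8.62, 3.37 and 3.43 in wild type, and its gap between wild type replicate 1 and the next array was the only one of all 23185 genes larger than that of Krtap15. Inner root sheath and companion layer genes, which form the sheath around the growing shaft, were lower in 12 of 13 (median -1.59, and -0.16 without that array). Krt25, a sheath keratin, was at 5.78, 3.84, 5.12 and 2.74 in knockout and at 10.61, 7.14 and 4.08 in wild type, and Tchh, which encodes trichohyalin, at 6.87, 5.08, 5.87 and 4.17 in knockout and at 11.08, 7.80 and 5.04 in wild type. Envelope and crosslinking genes of the shaft were lower in 12 of 15 measured members (median -0.47), and in 10 of 15 without that array (median -0.08). With array weights their median was 0.02. Padi3, a peptidylarginine deiminase, was at 3.38 to 3.84 in knockout and at 6.66, 3.93 and 4.30 in wild type. S100a3, a calcium-binding protein of the hair cuticle, was at 4.61, 4.65, 4.63 and 3.90 in knockout and at 9.30, 4.97 and 4.49 in wild type. Selenbp1 and Lce1m of the same list were instead lowest on wild type replicate 1, at 7.57 and 8.40.

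Regulators of the matrix and shaft were lower in 17 of 23 members, with a median of -0.30 that was 0.07 without wild type replicate 1. Trps1, a zinc finger factor, was at 4.09, 3.50, 3.96 and 4.21 in knockout and at 5.43, 4.50 and 4.01 in wild type. Hoxc13, shown because its motif was searched, was at 3.28, 3.22, 3.30 and 3.28 in knockout and at 5.71, 3.33 and 3.07 in wild type. Msx2, a homeobox gene of the hair matrix, was at 2.44 to 3.03 in knockout and at 6.08, 3.24 and 3.03 in wild type. Edar and Wnt10b, also listed as regulators, were instead lowest on wild type replicate 1, at 2.71 and 2.46. Follicle melanocyte pigment genes were lower in 10 of 10 (median -0.58, and -0.07 without that array), and Pmel, a melanosome protein, was at 3.72 to 4.64 in knockout and at 6.71, 4.31 and 5.14 in wild type. Proliferation genes were lower in 12 of 13 measured members (median -0.44, and 0.01 without it). At an unadjusted p under 0.05, 1 of them was lower, against 0.854% of all genes. That was the kinase gene Plk1, at 3.12 to 3.57 in knockout and at 4.45, 3.56 and 3.93 in wild type. In all these lists 0 members passed at an adjusted p under 0.05 in limma. The part that the hair growth stage, or the number of follicles in a sample, has in the Krtap differences was not tested, and the labels do not give either.

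**Figure D4:**
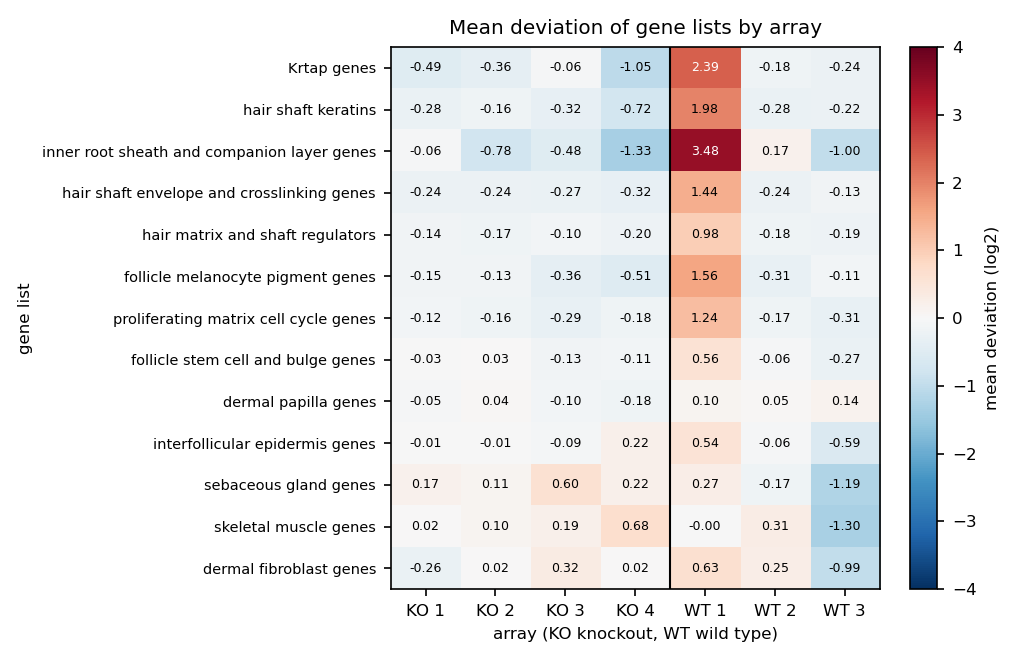
Mean deviation (log2) from each gene's own mean over 7 arrays, for the Krtap genes and 12 lists of follicle and other skin genes (rows), on knockout (KO, left) and wild type (WT, right) arrays. The Krtap genes and the shaft, sheath, matrix, pigment and proliferation lists are highest on WT 1. So are the fibroblast, bulge and interfollicular lists, at 0.63, 0.56 and 0.54. The muscle, sebaceous, fibroblast, interfollicular, bulge and proliferation lists are lowest on WT 3.

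Lists of other skin compartments deviated less on wild type replicate 1 than the Krtap genes did. Stem cell and bulge genes deviated by 0.56 on that array, with 6 of 10 lower in knockout (median -0.16), or 5 of 10 without that array (median 0.04), and dermal papilla genes by 0.10, with 10 of 13 lower (median -0.16). Interfollicular epidermis genes deviated by 0.54 there, with 5 of 11 lower (median 0.14). The deviation on that array was 0.63 for dermal fibroblast genes, 0.27 for sebaceous gland genes and -0.0005 for skeletal muscle genes. Sebaceous gland genes were lower in knockout in 1 of 10 (median 0.70), skeletal muscle genes in 1 of 12 (median 0.61) and dermal fibroblast genes in 4 of 9 measured members (median 0.20), and 0 members of these 6 lists passed at an adjusted p under 0.05 in limma. Counts at an unadjusted p under 0.05 were 0 for stem cell, epidermis, muscle and fibroblast genes, 1 lower for dermal papilla genes and 2 higher for sebaceous genes. Over all genes, 0.854% were lower and 1.03% higher at that threshold. Without wild type replicate 3 the medians were 0.23 for sebaceous, 0.11 for muscle, -0.45 for fibroblast and -0.16 for interfollicular genes, so that the sign turned for the last of these and for fibroblasts. Without wild type replicate 1 they were 0.91, 0.75, 0.31 and 0.35 in the same order. The lowest values of the sebaceous, muscle and fibroblast lists were on wild type replicate 3, at -1.19, -1.30 and -0.99. So were those of the interfollicular, stem cell and proliferation lists, at -0.59, -0.27 and -0.31. On knockout replicate 4, where Krtap genes were lowest, the skeletal muscle genes were highest, at 0.68. The hair shaft keratins were at -0.72 and the sheath genes at -1.33 there, both the lowest of the 7 arrays. Also lowest there were the pigment, envelope, regulator and dermal papilla lists, at -0.51, -0.32, -0.20 and -0.18. The part of these lists in the Krtap values was not tested.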

How the data were processed

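Biotinylated cDNA was made from total RNA of lesional skin for Affymetrix arrays, 1 array per sample, per the labels. The authors deposited log2 expression values made with RMA, per the submitters' processing notes. RMA normalizes between arrays and can return the same value on several arrays, as it did in 18 of the 54 Krtap genes (33.3%) and in 54.3% of all genes. For the RMA version and probe-set definition, the sources used here give nothing. Values were used as deposited.

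Of 25206 probe sets, the platform annotation named 23185 with 1 symbol and 0 with more, and 2021 stayed unnamed. Titles gave the genotypes, and limma 3.58.1 (R 4.3.3) compared them (lmFit and eBayes, 7 arrays, no covariates, two-sided), adjusted by Benjamini-Hochberg over the 23185 genes at 0.05. No dim genes were removed. Precision is limited by how few arrays there are. The fit was tested on simulated data, independent normal values with the same spread per gene on all 7 arrays. The real arrays were not equally spread, so that run does not show how the fit behaves with outlying arrays. Tables and figures were made with Python 3.11.15 and matplotlib 3.10.9.

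The members and gene lists were chosen with earlier results of these data known, so no list has a p-value. Protein classes were to come from amino acid composition. No protein sequences were used here, so classes were taken from family numbers, and families 16, 28 and 31 were left unassigned. Named members were, per class, the 4 with the smallest p, the 4 with the widest and the 2 with the narrowest range, all whose genotypes did not overlap, and up to 5 higher in knockout, of which there were 0. Further members are named for their family, and companion genes were those with the smallest p of their list, with Krt33a and Hoxc13 added after their values were seen. Selenbp1, Lce1m, Edar and Wnt10b were named because their values were lowest on wild type replicate 1. Promoters are those of RefSeq, 49 of 54 members having an entry. Alternatives were another moderation, dim filters at 30% and 50%, renormalization, array weights, blocks, all probe sets and left-out arrays.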

Additional observations from a re-analysis of the deposited data

Results flagged for a closer look

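In 3 of the 30 named Krtap genes, 1 of the 4 knockout arrays stood far from the other 3 by Dixon's criterion, and over all 54 members this happened in 4. Chance gives about 1 in 20 such groups when values do not tie and genes are not picked by their values. The named genes were picked partly by their range over the arrays, and values of close relatives are not independent. The counts of 3 and 4 are therefore no test against that share. In Krtap15 and Krtap1-4, 2 knockout arrays had exactly the same value, so that share need not hold for them. The counts are of the knockout arrays only. Krtap8-1 was at 2.30 on knockout replicate 4, against 6.14 to 6.75 on the other knockout arrays. Krtap15 was at 3.95 on knockout replicate 4, against 4.55 to 4.60 on the others. Krtap1-4 was at 3.68 on knockout replicate 1, against 3.90 to 3.91 on the others.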

How the results depend on the processing

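The count of 0 Krtap genes at an adjusted p under 0.05 held under every alternative run except array weights, which called 5, 3 lower in knockout (Krtap22-2, Krtap19-1 and Krtap19-2) and 2 higher (Krtap5-1 and Krtap9-5). That run gave wild type replicate 2 a weight of 75.4 and the other 2 wild type arrays 0.106 and 0.109, and it called 17.4% of all genes. The count of members at an unadjusted p under 0.05, 2 in the reported fit, was 5 after quantile normalization again, 12 with array weights, 0 with the replicate block, a fit that drops knockout replicate 4, 0 with the code suffix as a block, 1 with the code number as a random block, 4 without wild type replicates 1 and 3 together, and 0 to 12 with single arrays left out, 12 of them without wild type replicate 3 and 11 without replicate 2. Over all 23185 genes the count moved too, from 436 in the reported fit to 716 after quantile normalization again and 7364 with array weights. It was 251 with the replicate block, 278 with the code suffix and 350 with the code number. Without wild type replicate 3 it was 2786, without replicate 2 it was 807, and without wild type replicates 1 and 3 together it was 2024. The cause of these changes was not tested.

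The median difference of the family stayed negative in all runs, between -1.74 without wild type replicate 3 and -0.24 without wild type replicate 1 when single arrays were left out, at -0.98 with the replicate block, -0.20 with array weights and -0.028 without wild type replicate 1 and knockout replicate 4 together. The high-sulfur median was -0.17 with array weights, -0.20 without wild type replicates 1 and 3 together and from -1.93 to -0.21 with single arrays left out, and that of the unassigned genes -0.13 and -0.16 under the first 2 of these. The medians of dermal papilla and skeletal muscle genes were -0.0488 and -0.0371 with array weights and -0.0595 and -0.0275 without wild type replicates 1 and 3 together. With single arrays left out, dermal papilla genes ran from -0.174 to -0.0592, dermal fibroblast genes from -0.45 to 0.32, sebaceous genes from 0.23 to 0.91, muscle genes from 0.11 to 0.85, interfollicular genes from -0.16 to 0.35, stem cell genes from -0.34 to 0.04 and envelope genes from -0.76 to -0.08.

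Among named members, single arrays left out gave differences from -1.84 to 0.78 for Krtap4-6, -0.14 to 0.16 for Krtap4-13, -2.86 to 0.25 for Krtap6-5, -0.17 to 0.14 for Krtap9-5, -0.25 to 0.20 for Krtap13 and -2.51 to 0.22 for Krtap19-9b. With array weights the sign turned in Krtap4-13 (0.14), Krtap9-5 (0.31), Krtap13 (0.10), Krtap16-1 (0.12), Krtap19-3 (0.0315) and Krtap19-9b (0.0655), and without wild type replicates 1 and 3 together in the same order to 0.12, 0.30, 0.091, 0.0901, 0.0082 and 0.0074. The replicate block gave 0.10 for Krtap4-13 and 0.0246 for Krtap9-5, and the code suffix as a block 0.0061 for Krtap9-5. Samples of both genotypes with the same replicate number did not deviate together (r of -0.086, -0.145 and 0.034 over all genes), so the replicate numbers were not taken as pairs. The other 8 alternatives that kept every array turned no sign among the named members they tested, 28 and 24 of 30 under the dim filters. A lower cysteine threshold for the classes was not run, since no protein sequences were used.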
